A study of Mus musculus with 16 samples.

Results

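Cholesterol synthesis and its control by SREBP2 were followed here through 27 genes measured by bulk RNA sequencing of mouse brain. The genes were chosen by name: enzymes of the mevalonate and sterol pathway, SREBP2 with the proteins that process it, the INSIG proteins and a sterol carrier. All 27 were found among the 54532 entries of the deposited table, and all 27 were among the 17736 genes tested after the filter on low counts. The samples were 16 libraries from female mice of 9 months, in 4 groups of 4. Mice that kept Ch25h (Ch25h+/+) or lacked it (Ch25h-/-) were sequenced without (Tau-) or with (Tau+) tau, so the controls for the tau comparison were Ch25h+/+ Tau- or Ch25h-/- Tau-. The labels name neither the tau transgene nor its promoter, do not say how Ch25h was removed, and do not say that each library came from a separate mouse, so the p-values below measure the spread between these samples. Tissue is given as frontal cortex for each sample and as hippocampus in the series' design text. Summed markers of cortex reached 660 to 830 CPM (normalised read counts, on a scale common to all libraries) in the libraries, against 117 to 272 CPM for markers of hippocampus.

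The mevalonate pathway builds isoprenoid units from acetyl-CoA, and squalene made from them is closed to lanosterol and trimmed to cholesterol. The transcription factor SREBP2 drives the genes of this pathway. It sits in the endoplasmic reticulum with the sterol sensor SCAP, which INSIG proteins hold back while sterols are plentiful; when sterols run low, SCAP carries SREBP2 to the Golgi, where proteases free the active part. CH25H makes an oxysterol, 25-hydroxycholesterol, that binds INSIG and favours this retention. Brain makes its own cholesterol behind the blood-brain barrier, and oligodendrocytes and astrocytes are main producers. In bulk tissue, fewer cells of a type and less RNA per cell cannot be told apart.

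Libraries held 15530352 to 25602500 counts. No count of Ch25h was found in any of the 8 Ch25h-/- libraries, and a count of 0 allows up to 3 counts, or 0.117 to 0.193 CPM (counting error only). It had 5 to 30 counts in the 8 Ch25h+/+ libraries. Prnp, whose sequence is carried by tau transgenes built on the prion promoter, reached 1414 to 1935 CPM in Tau+ and 708 to 839 CPM in Tau- libraries. Libraries stood apart in a way that runs along the Ch25h genotype. In 7 of the 8 Ch25h-/- libraries, the ribosomal RNA transcript CT010467.1 took 2289 to 5684 CPM of the total counts, and Malat1, a nuclear RNA, took 392 to 1041 CPM. The other 9 libraries, all 8 Ch25h+/+ and Ch25h-/- Tau+ replicate 1, had 111 to 475 CPM and 167 to 290 CPM of these. The 7 are called rRNA-rich below. Within Tau-, genotype and this library class cannot be told apart.

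Promoter windows were searched for the core of the sterol regulatory element to which SREBP2 binds, spelled TCACNCCAC, and for the CCAAT box bound by NF-Y, a factor that often acts beside SREBP2. RefSeq windows (GRCm38.p6) ran from 250 bases before to 50 bases after a start. They were used for 23 of the 27 genes, and none was used for Fdps, Stard4, Sqle and Fdft1. TCACNCCAC, on either strand, was found in 1 of the 23, Hmgcs1, and in 1.44% of the 27025 genes with a window. Only these exact letters were searched, so other spellings of the element were not counted. CCAAT, on either strand, was found in 19 of the 23 and in 41.1% of all genes. The 2 motifs share no letters in the windows printed here. The Hmgcs1 window is shown because it holds both motifs, and those of Insig1 and Srebf2 because these 2 genes had the smallest p for the difference between the tau effects below. Capitals mark motif matches (ATTGG is CCAAT on the other strand), all 3 genes lie on the plus strand, and each stretch stops before the first annotated exon. They span chr13:119690101-119690350, chr5:28071162-28071362 and chr15:82147019-82147180.
Hmgcs1: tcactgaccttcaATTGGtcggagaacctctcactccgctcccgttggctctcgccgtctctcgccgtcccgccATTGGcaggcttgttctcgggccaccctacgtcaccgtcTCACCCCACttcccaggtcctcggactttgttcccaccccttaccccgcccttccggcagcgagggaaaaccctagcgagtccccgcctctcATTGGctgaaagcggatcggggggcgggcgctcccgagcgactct
Insig1: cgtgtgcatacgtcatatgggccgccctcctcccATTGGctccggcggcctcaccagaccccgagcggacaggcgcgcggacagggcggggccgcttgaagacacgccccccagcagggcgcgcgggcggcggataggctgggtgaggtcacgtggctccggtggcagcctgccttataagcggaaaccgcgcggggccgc
Srebf2: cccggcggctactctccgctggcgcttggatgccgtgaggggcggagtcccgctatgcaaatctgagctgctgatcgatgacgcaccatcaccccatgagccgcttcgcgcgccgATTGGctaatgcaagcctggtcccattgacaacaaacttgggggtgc

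Levels of the genes were compared as CPM per kilobase of exon, as means over the 16 libraries. Srebf2 itself (chromosome 15, 82147181 to 82205379) had the highest level, at 45.7, followed by Hmgcs1, the synthase that makes HMG-CoA (chromosome 13, 119690379 to 119708260), at 41.5. Among the other mevalonate enzymes, the phosphomevalonate kinase Pmvk had 16.7 and the acetoacetyl-CoA thiolase Acat2 had 13.2. Ggps1, the synthase of geranylgeranyl diphosphate for protein prenylation, had 10.3, the decarboxylase Mvd had 10.1, the mevalonate kinase Mvk had 8.21 and the isomerase Idi1 had 4.95. Fdps, the farnesyl diphosphate synthase, had 0.317, from 14 to 40 counts per library, far under its neighbours in the pathway. How reads that match several places were counted is not given in the sources used here.

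In the squalene branch, the squalene synthase Fdft1 had 21.5 CPM per kilobase, the epoxidase Sqle 12.04 and the lanosterol synthase Lss 3.67. After lanosterol, the desaturase Sc5d had 12.4, the lanosterol demethylase Cyp51 11.97 and the methylsterol oxidase Msmo1 11.3. The dehydrogenase Nsdhl had 6.14, the isomerase Ebp 5.92, the reductase Dhcr7 5.77, the reductase Tm7sf2 5.66 and the ketosterol reductase Hsd17b7 4.33. Lbr, a sterol reductase that also anchors lamin at the nuclear envelope, had 2.63. SCAP's gene Scap had 15.5, and the proteases that cut SREBP2 had 8.74 for Mbtps1 and 3.10 for Mbtps2. Insig1, which SREBP2 itself induces, had 22.3 against 11.4 for Insig2, and the sterol carrier Stard4 had 6.42. Exons of 11 of the 27 genes overlap another annotated gene, 8 of them on the opposite strand. Whether strand was used in counting is not given in the sources used here, so reads of Cyp51 and Akap9, Ggps1 and Arid4b, or Fdft1 and Ctsb may be mixed (the partners had means of 63.2, 51.8 and 590 CPM). Acat2 has a near copy, Acat3, at a mean of 3.84 CPM.

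**Figure D1:**
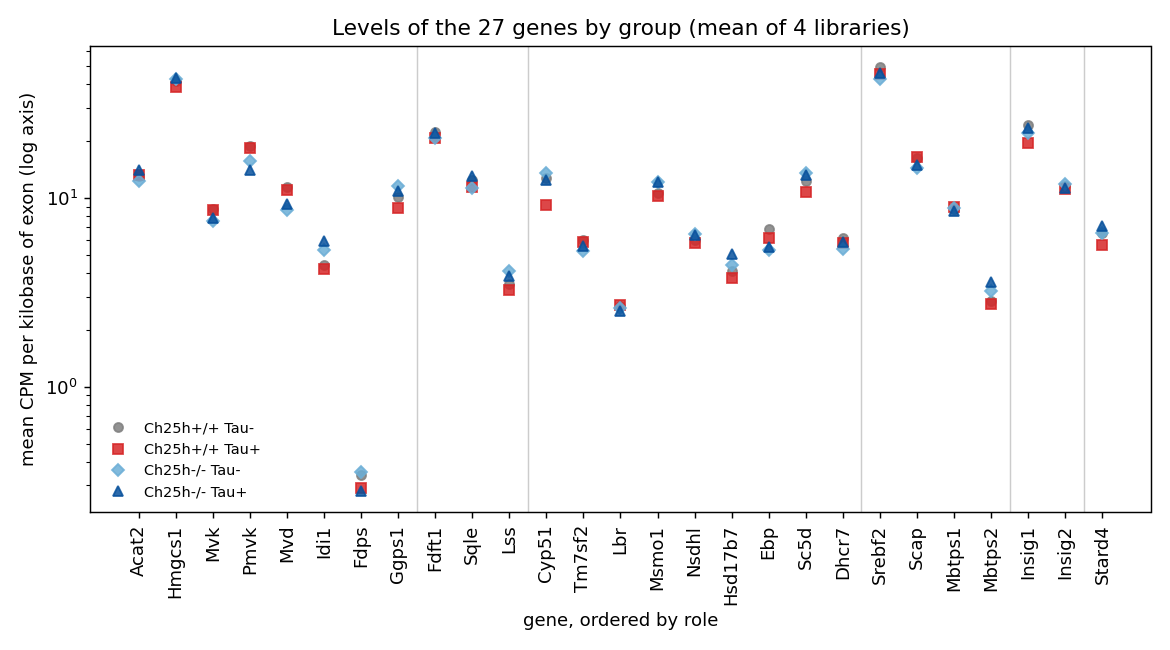
Mean level of each of the 27 genes in the 4 groups, in CPM per kilobase of exon on a log axis, with genes ordered by role. Srebf2 and Hmgcs1 lie highest in every group and Fdps lies lowest in every group.

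**Figure D2:**
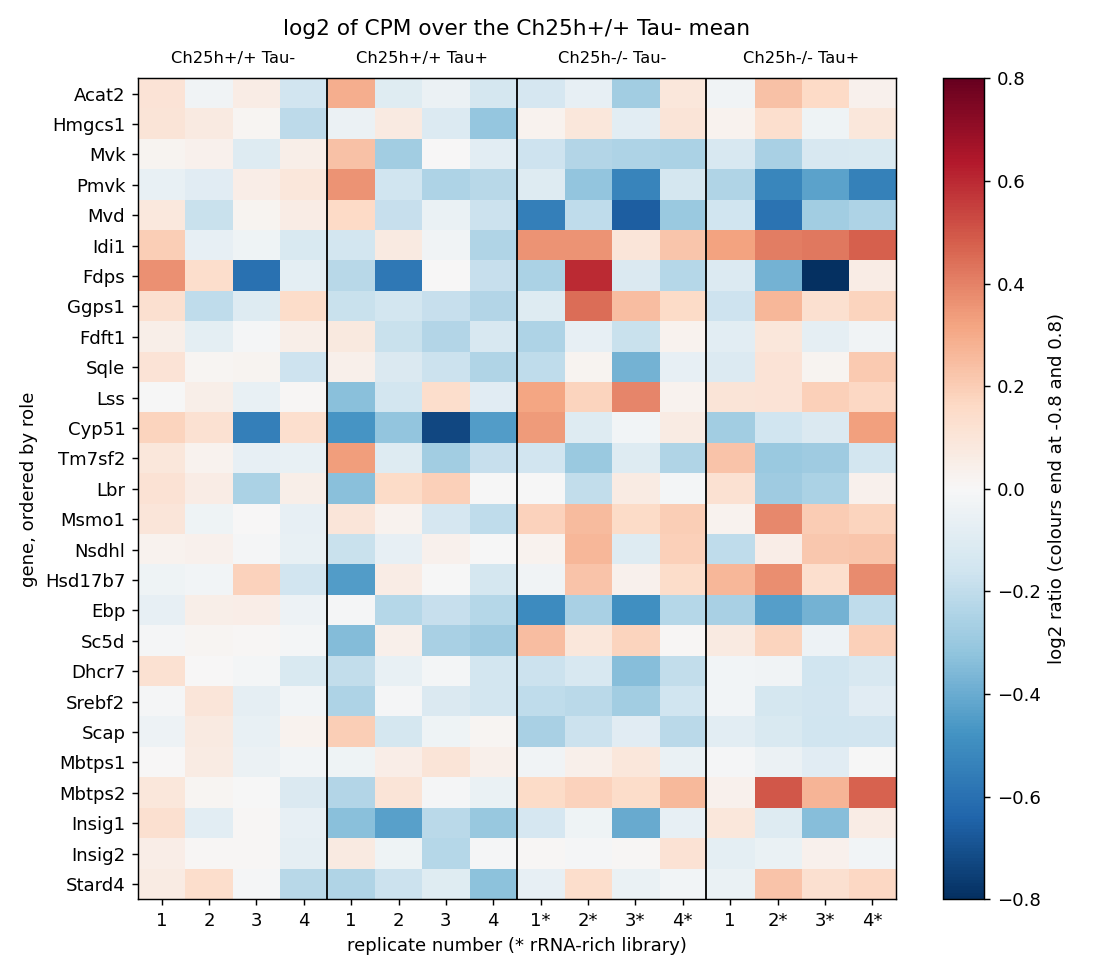
Each cell gives the log2 ratio of a gene's CPM in 1 library to its mean in Ch25h+/+ Tau-, with genes ordered by role, libraries by group and replicate, and an asterisk on the 7 rRNA-rich libraries. The genes do not move as 1 block, and Cyp51 is lowest in the 4 Ch25h+/+ Tau+ libraries (34.0 to 45.3 CPM) and in Ch25h+/+ Tau- replicate 3 (38.5 CPM).

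The first comparison asked how the genes stood with tau where Ch25h was present (Ch25h+/+ Tau+ minus Ch25h+/+ Tau-). None of the 27 passed the test (edgeR quasi-likelihood, Benjamini-Hochberg adjusted p under 0.05 over all genes), where 1.56% of all genes tested did, and DESeq2 and limma-voom called none of the 27 either. At an unadjusted p under 0.05 there were 4, all with lower values in Tau+ (Insig1, Cyp51, Sc5d and Stard4), where 3.13% of all genes had such a p and a lower value. The fitted log2 fold change was below 0 in 23 of 27, against 52.2% of all genes, and its median was -0.09 against -0.01 over all genes. Without Ch25h+/+ Tau- replicate 1 the median of the 27 was -0.054, and without Ch25h+/+ Tau+ replicate 4 the count below 0 was 20 of 27. The median was -0.07 over the 8 mevalonate enzymes, -0.11 over the 3 squalene and lanosterol enzymes, -0.10 over the 9 later sterol enzymes and -0.01 over Srebf2, Scap, Mbtps1 and Mbtps2.

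Insig1 had the smallest p. Its CPM was 59.9, 56.0, 64.9 and 61.3 in Ch25h+/+ Tau+ and 82.4, 71.4, 76.2 and 72.3 in Ch25h+/+ Tau-. All 4 Tau+ libraries lay under all 4 Tau- libraries, the only such case among the 27, where 1.97% of all genes lay lower in this way. The log2 fold change was -0.32 ± 0.10 (SE), 1.25-fold lower, with an adjusted p of 0.140 (edgeR).

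Cyp51, which starts the removal of methyl groups from lanosterol, had the largest difference of the 27, at -0.48 ± 0.15 (SE, adjusted p = 0.191, edgeR). Its CPM was 40.7, 45.3, 34.0 and 41.4 in Ch25h+/+ Tau+ against 63.7, 61.5, 38.5 and 61.9 in Ch25h+/+ Tau-. The groups overlapped through 1 library, Ch25h+/+ Tau- replicate 3 at 38.5 CPM, and without it the difference was -0.62 with an adjusted p of 0.0228 (edgeR), past the threshold. Sc5d, which acts late in the pathway, had 47.1, 61.7, 49.97 and 49.2 CPM in Tau+ and 59.6, 60.5, 60.4 and 59.2 CPM in Tau-. Here 3 of the 4 Tau+ libraries lay under every Tau- library and the fourth lay above them, for a log2 difference of -0.20 ± 0.08 (SE, adjusted p = 0.409, edgeR). Stard4 had 30.7, 32.2, 33.9 and 28.9 CPM in Tau+ and 37.9, 40.0, 36.0 and 31.1 CPM in Tau-, with overlapping groups and a difference of -0.21 ± 0.09 (SE, adjusted p = 0.462, edgeR).

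Markers of glia and of striatum differed in the same libraries. The sum over 6 microglia markers was 292 to 312 CPM in Ch25h+/+ Tau- and 441 to 559 CPM in Ch25h+/+ Tau+, and 4 of the 6 passed the test, all higher. The sum over 6 astrocyte markers was 2966 to 3270 and 2765 to 4990 CPM, with 1 of 6 past the test, and that over 8 oligodendrocyte markers was 2694 to 3708 and 2801 to 5108 CPM, with 0 of 8. Striatum markers summed to 175 to 275 CPM in Ch25h+/+ Tau- and 159 to 178 CPM in Ch25h+/+ Tau+, with 0 of 6 past the test (median -0.50). The highest of these sums was that of Ch25h+/+ Tau- replicate 3, the library lowest in Cyp51 within its group. Choroid plexus markers ran from 15.3 to 1426 CPM and from 35.3 to 2288 CPM, a spread within groups. None of these markers was at 0 in all 4 libraries of a group. Their part in the values of the 27 genes was not tested.

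**Figure D3:**
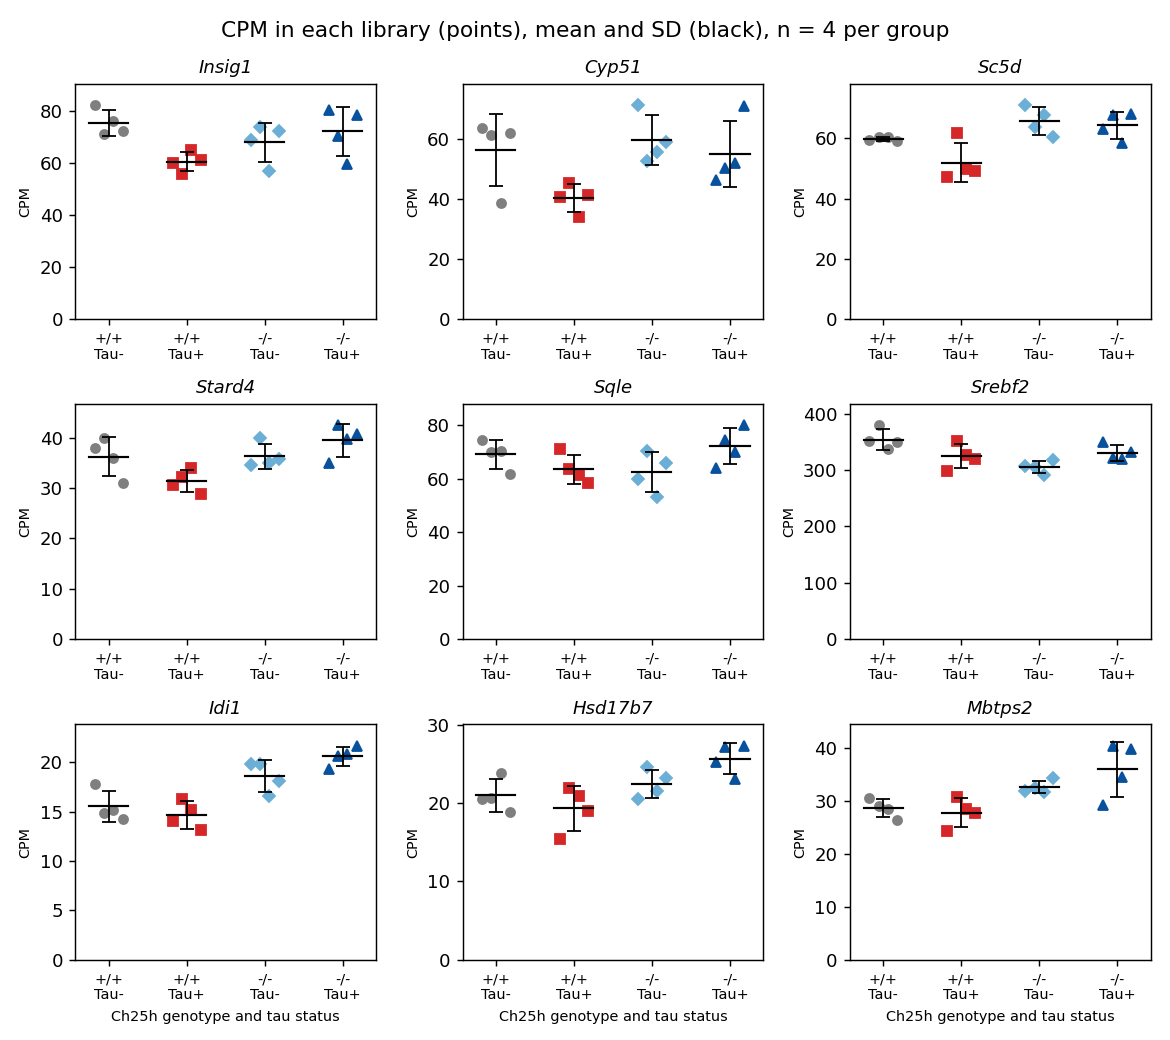
CPM of the named genes in each library (points) with the mean and SD of each group (n = 4), axes starting at 0. Insig1 separates Ch25h+/+ Tau+ (56.0 to 64.9) from Ch25h+/+ Tau- (71.4 to 82.4), and Idi1 separates Ch25h-/- Tau+ (19.4 to 21.7) from Ch25h+/+ Tau+ (13.1 to 16.3).

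The same comparison where Ch25h was absent (Ch25h-/- Tau+ minus Ch25h-/- Tau-) also gave no call. None of the 27 passed the test with edgeR, DESeq2 or limma-voom, where edgeR called 0.0395% of all genes. The fitted value was above 0 in 17 of 27, against 52.8% of all genes, with a median of 0.05 against 0.01. The median was 0.007 when Ch25h-/- Tau- replicate 3 was left out and 0.020 when replicate 1 was. Only Sqle, the epoxidase whose protein level is also held down by sterols, had an unadjusted p under 0.05, with a higher value in Tau+, where 1.9% of all genes had both. Its CPM was 63.9, 74.5, 70.1 and 79.9 in Ch25h-/- Tau+ and 60.1, 70.3, 53.2 and 66.0 in Ch25h-/- Tau-, with overlapping groups and a log2 difference of 0.21 ± 0.09 (SE, adjusted p = 1, edgeR).

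Acat2, at the entry to the pathway, had 32.7, 39.2, 37.3 and 34.2 CPM in Ch25h-/- Tau+ and 30.5, 31.9, 27.6 and 35.6 CPM in Ch25h-/- Tau-. Its groups overlapped through the highest Tau- library, and the difference was 0.19 ± 0.10 (SE, adjusted p = 1, edgeR). Srebf2 had 349, 321, 319 and 332 CPM in Ch25h-/- Tau+ and 307, 305, 291 and 317 CPM in Ch25h-/- Tau-. Its groups did not overlap, the only such case of the 27, where 1.14% of all genes lay higher in this way, and the difference was 0.12 ± 0.07 (SE, adjusted p = 1, edgeR). The highest of these Srebf2 values belonged to replicate 1 of Ch25h-/- Tau+, the one library of the 8 that was not rRNA-rich. Choroid plexus markers summed to 45 to 1626 CPM in Ch25h-/- Tau- and 55.8 to 2753 CPM in Ch25h-/- Tau+ (median log2 fold change 1.25). The median was 0.28 for oligodendrocyte, -0.21 for striatum, -0.12 for hippocampus, 0.07 for microglia and 0.03 for astrocyte markers. None of these markers was called, and their part in the values of the 27 genes was not tested.

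The interaction tested the difference between the 2 tau effects, that in Ch25h-/- minus that in Ch25h+/+. None of the 27 passed, where 0.0338% of all genes did. An unadjusted p under 0.05 was found for Insig1, Srebf2, Stard4 and Sqle, all with a positive interaction, where 1.2% of all genes had such a p and a positive value. The fitted interaction was above 0 in 22 of 27, against 53.7% of all genes, and the median was 0.17 against 0.02. By role, it was positive in 6 of 8 mevalonate enzymes, 3 of 3 squalene and lanosterol enzymes, 8 of 9 later enzymes and 3 of the 4 genes of SREBP2 and its processing. The 5 below 0 were Pmvk, Fdps, Insig2, Lbr and Mbtps1, between -0.12 and -0.02. For the same contrast, 1 of 6 microglia markers was called lower (median of the 6 -0.42), and none of the 6 astrocyte markers was called (median -0.25). None of the 6 striatum markers was called either (median 0.29). The same held for the 6 choroid plexus markers (median 0.91) and the 6 hippocampus markers tested (median -0.27). Their part in these values was not tested.

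Insig1 had the largest interaction, 0.41 ± 0.14 (SE, adjusted p = 0.651, edgeR). Its mean CPM with SD (n = 4) was 75.6 ± 5.02 in Ch25h+/+ Tau- and 60.5 ± 3.71 in Ch25h+/+ Tau+, and 68.1 ± 7.57 in Ch25h-/- Tau- and 72.3 ± 9.40 in Ch25h-/- Tau+. In Ch25h-/- the 4 values of each group, 57.1 to 73.9 and 59.8 to 80.3, overlapped widely. Srebf2 had an interaction of 0.24 ± 0.09 (SE, adjusted p = 0.922, edgeR): 354 ± 17.9 and 324 ± 21.7 CPM in Ch25h+/+ without and with tau, and 305 ± 10.6 and 330.3 ± 13.8 CPM in Ch25h-/- (SD, n = 4). Stard4, whose mean was 36.3 CPM in both Tau- groups, had 31.4 ± 2.15 in Ch25h+/+ Tau+ and 39.5 ± 3.19 in Ch25h-/- Tau+ (SD, n = 4), for an interaction of 0.32 ± 0.13 (SE, adjusted p = 0.960, edgeR).

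Insig2, the INSIG gene that SREBP2 does not induce in the same way, lay within 38.8 to 40.9 CPM in all 4 group means. Mbtps1 lay within 89.5 to 94.5 CPM. The interaction stayed above 0 in 19 to 23 of the 27 over 25 other fits, with a median of 0.11 to 0.19, and no fit called any of the 27. The interaction is computed from the same libraries as both tau effects, so it is no separate support for either.

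**Figure D4:**
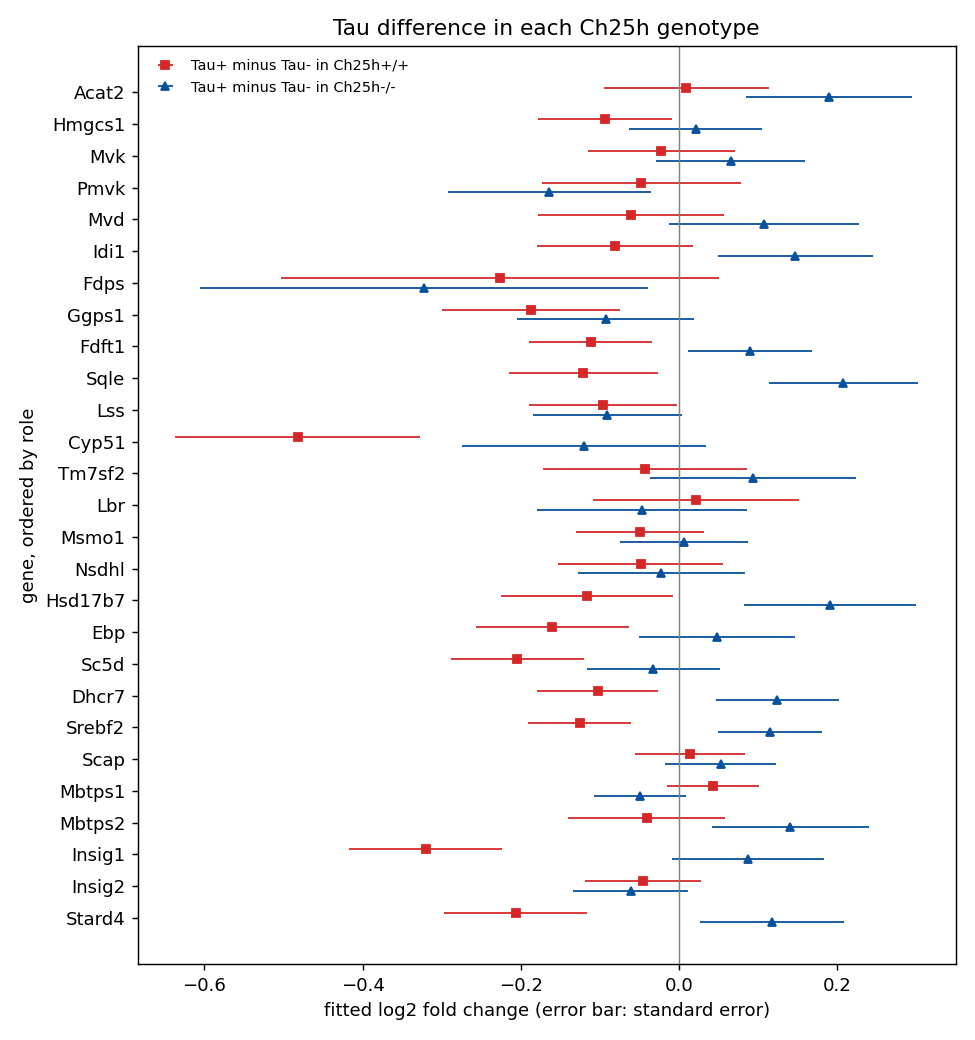
Fitted log2 fold change with tau (± SE) for each of the 27 genes, in Ch25h+/+ and in Ch25h-/-, ordered by role. In Ch25h+/+, 23 of 27 points lie under 0, and in Ch25h-/-, 17 of 27 lie above it.

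Loss of Ch25h in Tau+ (Ch25h-/- Tau+ minus Ch25h+/+ Tau+) was the one comparison in which any of the 27 passed the test. Idi1, Hsd17b7 and Mbtps2 were called, all higher in Ch25h-/-, 3 of 27 where 3.55% of all genes were called and 1.14% were called higher. The fitted value was above 0 in 18 of 27, against 50.7% of all genes, with a median of 0.09 against 0.00. The median was 0.035 when Ch25h-/- Tau+ replicate 2 was left out. Leaving out Ch25h+/+ Tau+ replicate 2 gave 0.049, and leaving out replicate 1 of that group gave 0.151. An unadjusted p under 0.05 was found for 11 of the 27, where 23.9% of all genes had one, with higher values in 10 (11.6% of all genes) and a lower value in Pmvk. This comparison shares Ch25h+/+ Tau+ libraries with the tau comparison in Ch25h+/+.

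Idi1, the isomerase that makes the allylic building block for chain growth (chromosome 13, 8885501 to 8892451), had 19.4, 20.7, 20.8 and 21.7 CPM in Ch25h-/- Tau+ and 14.04, 16.3, 15.2 and 13.1 CPM in Ch25h+/+ Tau+. All 4 Ch25h-/- libraries lay above all 4 Ch25h+/+ libraries, and Idi1 rose by 0.49 ± 0.10 on the log2 scale (SE, adjusted p = 0.0140, edgeR), 1.40-fold. Hsd17b7, which reduces the keto group left by demethylation (chromosome 1, 169949535 to 169969241), had 25.2, 27.1, 23.0 and 27.3 CPM against 15.4, 21.9, 20.9 and 19.0 CPM. These groups did not overlap either, and the rise was 0.41 ± 0.11 (SE, adjusted p = 0.0474, edgeR), 1.33-fold. Mbtps2, the protease that makes the second cut of SREBP2 (chromosome X, 157535371 to 157598715), had 29.3, 40.5, 34.5 and 39.8 CPM against 24.3, 30.8, 28.5 and 27.7 CPM. The lowest Ch25h-/- library lay inside the Ch25h+/+ range, and the rise was 0.37 ± 0.10 (SE, adjusted p = 0.0484, edgeR), 1.29-fold. Leaving out 1 library ended the call of Mbtps2 in 14 of 16 fits, that of Hsd17b7 in 12 and that of Idi1 in 3.

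Groups that did not overlap were found for 4 of the 27 (Idi1, Hsd17b7, Cyp51 and Stard4), all with higher values, where 4.5% of all genes lay higher in this way. Cyp51 had 46.4, 50.5, 52.0 and 71.0 CPM in Ch25h-/- Tau+ against 34.0 to 45.3 CPM in Ch25h+/+ Tau+, a difference of 0.44 ± 0.16 (SE, adjusted p = 0.101, edgeR). Stard4 had 35.0, 42.4, 39.7 and 40.7 CPM against 28.9 to 33.9 CPM, a difference of 0.33 ± 0.09 (SE, adjusted p = 0.0518, edgeR). In Pmvk, the kinase after Mvk, the difference was -0.38 ± 0.13 (SE, adjusted p = 0.0919, edgeR), with 1 high Ch25h+/+ Tau+ library at 41.4 CPM and the other 3 at 27.2 to 28.9 CPM against 22.2 to 27.3 CPM in Ch25h-/- Tau+. With GC offsets these differences were 0.36 for Cyp51, 0.20 for Stard4 and -0.23 for Pmvk.

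All 8 Ch25h+/+ libraries were of 1 class, so a class term in the fit leaves Ch25h-/- Tau+ replicate 1 as the only library that carries the contrast with Ch25h+/+. For both losses of Ch25h, values with that term rest on this 1 library, and the loss of a call in them says little. Idi1 then had 0.40 (adjusted p = 0.928), Hsd17b7 0.38 (adjusted p = 0.976) and Mbtps2 0.07 (adjusted p = 0.982, edgeR). Against the 4 Ch25h+/+ Tau+ libraries, the single Ch25h-/- Tau+ library that was not rRNA-rich, replicate 1, had 19.4 CPM of Idi1 and 25.2 CPM of Hsd17b7, above all 4, and 29.3 CPM of Mbtps2, inside their range. The 5 fits that called none of the 27 in place of 3 were that with library class, that with offsets for GC content, that of the 2 groups alone, that of the 9 libraries that were not rRNA-rich and that without the 4 libraries highest in choroid plexus markers. In the first and the fourth of these, 1 Ch25h-/- Tau+ library stood against 4. The count was also 0 without Ch25h+/+ Tau+ replicate 4, Ch25h-/- Tau+ replicate 3 or Ch25h-/- Tau+ replicate 4. It was 1 without any 1 of 9 others, and 8 without Ch25h-/- Tau+ replicate 1. Over all genes, leaving out 1 library gave 108 to 1691 calls, against 629. The count among the 27 was not set against the share of all genes in each fit. Microglia markers summed to 281 to 351 CPM in Ch25h-/- Tau+ against 441 to 559 CPM in Ch25h+/+ Tau+, with 5 of 6 called lower. Of the astrocyte markers 1 of 6 was called lower (median -0.17), and of the oligodendrocyte markers 0 of 8 were called (median -0.26). The part of these markers in the results was not tested.

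Loss of Ch25h in Tau- (Ch25h-/- Tau- minus Ch25h+/+ Tau-) set 4 rRNA-rich libraries against 4 that were not. None of the 27 passed the test with edgeR, where 1.03% of all genes did, and 14 of 27 fitted values were above 0, against 51.4% of all genes, with a median of 0.00 against 0.01. Without Ch25h+/+ Tau- replicate 3, 10 of 27 were above 0 (median -0.07). With GC offsets, 8 of 27 were above 0 (median -0.05), and with a term for library class, 9 of 27 (median -0.11). An unadjusted p under 0.05 was found for 9 of the 27, where 20.9% of all genes had one. Values were lower for 6, Ebp, Mvd, Srebf2, Dhcr7, Scap and Mvk (11.3% of all genes), and higher for 3, Idi1, Lss and Msmo1 (9.55% of all genes). Groups did not overlap for 10 of the 27, where 16.2% of all genes had such groups, with 8 lower (Mvk, Pmvk, Mvd, Tm7sf2, Ebp, Dhcr7, Srebf2 and Scap, where 8.58% of all genes lay lower) and 2 higher (Msmo1 and Mbtps2, where 7.64% lay higher). Striatum markers had a median of -0.44 and choroid plexus markers one of -0.53 for this contrast, with none of either 6 called, and their part in the values was not tested.

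Ebp, the sterol isomerase, had the smallest p, with 11.1, 13.1, 11.2 and 13.4 CPM in Ch25h-/- Tau- and 15.02, 16.3, 16.4 and 15.3 CPM in Ch25h+/+ Tau-. The groups lay apart, at -0.36 ± 0.10 (SE, adjusted p = 0.0680, edgeR). Mvd, the decarboxylase that yields isopentenyl diphosphate, had 14.6, 18.5, 13.5 and 17.4 CPM against 22.6, 18.9, 21.6 and 22.2 CPM, narrowly apart, at -0.41 ± 0.12 (SE, adjusted p = 0.0773, edgeR). Srebf2 had 307, 305, 291 and 317 CPM against 351, 379, 337 and 349 CPM, at -0.21 ± 0.07 (SE, adjusted p = 0.0893, edgeR). All 4 Ch25h-/- libraries lay under the lowest Ch25h+/+ library in each of these 3 genes. DESeq2 and limma-voom each called these 3, where edgeR called none. Over all genes, the alternatives run on all libraries or on parts of them called 0 to 1388 here, against 182 in the main fit. The 3 calls were not set against the share of all genes in the same fits. With GC offsets the differences were -0.34 for Ebp, -0.21 for Mvd and -0.03 for Srebf2 (adjusted p = 0.206, 0.476 and 0.909, edgeR).

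Idi1 was higher in value in both comparisons of Ch25h loss, at 0.49 in Tau+ and 0.26 ± 0.10 in Tau- (SE, adjusted p = 0.145, edgeR), with 19.9, 19.9, 16.6 and 18.1 CPM in Ch25h-/- Tau- against 17.8, 14.8, 15.2 and 14.3 CPM. Mbtps2 had 0.37 and 0.19, Lss 0.24 and 0.23, and Msmo1 0.25 and 0.20. Hsd17b7 had 0.41 and 0.10, and Cyp51 0.44 and 0.08. Mvd had -0.25 and -0.41, Pmvk -0.38 and -0.26, and Ebp -0.16 and -0.36. These values moved with the model. With GC offsets, in the same order of Tau+ and Tau-, Idi1 had 0.33 and 0.10, Mbtps2 0.17 and -0.01, Lss 0.21 and 0.21, and Msmo1 0.14 and 0.09. Hsd17b7 then had 0.29 and -0.03, and Cyp51 0.36 and -0.002. Mvd then had -0.06 and -0.21, Pmvk -0.23 and -0.10, and Ebp -0.14 and -0.34. Whether the 2 losses of Ch25h differ for a gene is the interaction above, in which none passed.

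The differences with Ch25h loss ran with the GC content of the genes' longest transcripts. Across the 27 genes, the Spearman correlation of the log2 fold change with GC content was -0.78 for loss in Tau+ and -0.81 for loss in Tau-, against -0.47 and -0.54 over 17568 genes tested with a known GC content. The points share their libraries and are not independent replicates. The 9 genes of lowest GC content (39.96% to 44.73%, Mbtps2, Ggps1, Idi1, Sc5d, Hmgcs1, Hsd17b7, Stard4, Lbr and Msmo1) had a median of 0.31 in Tau+ and 0.13 in Tau-, and 8 of 9 were above 0 in each. The 9 of highest GC content (50.89% to 59.1%, Scap, Mvd, Srebf2, Pmvk, Mvk, Dhcr7, Fdft1, Tm7sf2 and Ebp) had a median of -0.14 in Tau+ and -0.21 in Tau-, with 3 of 9 and 0 of 9 above 0.

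All 3 genes called in Tau+ belonged to the 9 of lowest GC content, and all 8 whose values lay lower without overlap in Tau- belonged to the 9 of highest. The libraries carried the same slope over all genes, with a Spearman correlation of expression deviation with GC content of -0.39 to -0.26 in the rRNA-rich libraries and 0.08 to 0.36 in the others. With offsets that remove this slope, the difference in Tau+ was 0.33 for Idi1 (adjusted p = 0.0775), 0.29 for Hsd17b7 (adjusted p = 0.164) and 0.17 for Mbtps2 (adjusted p = 0.301, edgeR). For the interaction and for the tau effects in Ch25h+/+ and Ch25h-/-, the correlation across the 27 genes was -0.16, 0.19 and -0.01.

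**Figure D5:**
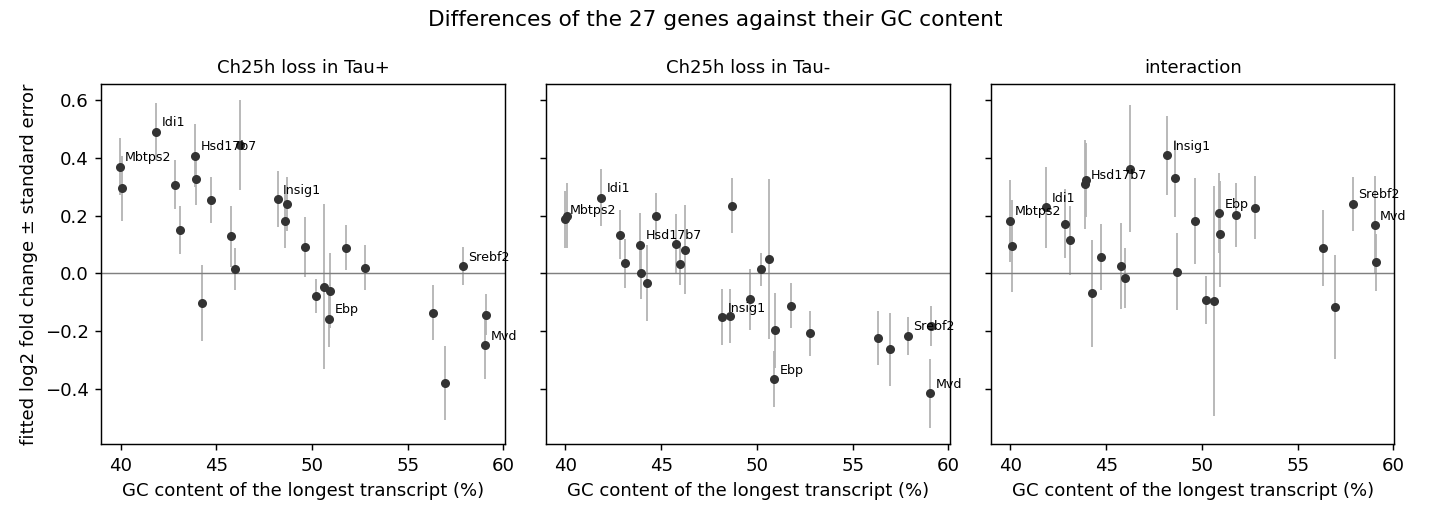
Fitted log2 fold change (± SE) of each of the 27 genes against the GC content of its longest transcript in percent, for loss of Ch25h in Tau+, loss of Ch25h in Tau- and the interaction. The points fall from left to right in both comparisons of Ch25h loss (Spearman -0.78 and -0.81), and hardly do so for the interaction (-0.16).

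Another 42 genes around the pathway were read as 5 lists, and 41 of them were tested. None was called in either tau comparison or in the interaction. In the list of electron suppliers and scaffold of sterol enzymes, 2 of 6 were called lower with loss of Ch25h in Tau+, where 2.4% of all genes were, and 1 of 6 in Tau-, where 0.812% were. Cyb5r3, the reductase that feeds cytochrome b5, fell from 78.5 ± 6.27 to 61.3 ± 3.74 CPM (SD, n = 4), by 0.36 ± 0.08 on the log2 scale (SE, adjusted p = 0.0185, edgeR). Por, which supplies electrons to Cyp51 and Sqle, fell from 89.4 ± 6.51 to 74.3 ± 3.25 CPM, by 0.27 ± 0.07 (SE, adjusted p = 0.0447, edgeR). In Tau-, Cyb5r3 fell from 69.5 ± 5.95 to 55.6 ± 1.25 CPM, by 0.32 ± 0.08 (SE, adjusted p = 0.0497, edgeR). These calls did not hold with GC offsets, where Cyb5r3 had -0.24 in Tau+ and -0.19 in Tau- and Por had -0.09. Leaving out 1 library ended the call of Cyb5r3 in Tau- in 14 of 16 fits, that of Por in 8 of 16 and that of Cyb5r3 in Tau+ in 3 of 16.

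None of the genes in the other 4 lists passed in any of the 5 comparisons. These were 5 genes of acetyl-CoA supply (Acly and others), 12 of prenylation, dolichol and ubiquinone, 11 tested of 12 in sterol-regulated degradation, and 7 further targets of SREBP2 (Tmem97, Mmab, Rdh11, Fads2, Lpin1, Sec14l2 and Pcyt2). The interaction was above 0 in 25 of the 41 genes of the 5 lists, against 53.7% of all genes, with a median of 0.05. By list, it was above 0 in 6 of 7 further targets (median 0.12), 4 of 5 genes of acetyl-CoA supply (0.14), 4 of 6 electron suppliers (0.02), 6 of 12 genes of isoprenoid use (0.00) and 5 of 11 genes of degradation (0.00). The lists were chosen with results of these data known, and their counts are a description.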

How the data were processed

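Counts per gene and library were deposited by the authors as 1 table with no normalization. Per the submitters' processing notes, STAR 2.7 and the build GRCm38 (mm10) were used. The counting program, annotation and use of strand are not given in the sources used here. Libraries were made from total RNA with a SMARTer mRNA kit, per the labels' protocols. Genes were filtered with filterByExpr and tested with edgeR 4.0.16 in R 4.3.3 (quasi-likelihood F test, two-sided, TMM), with the 16 libraries in 1 model of 4 group means. Adjustment (Benjamini-Hochberg, threshold 0.05) ran over the 17736 genes tested. The fit was tested on simulated data. CPM used TMM-scaled library sizes, or total counts where stated. Exon lengths, GC content and overlaps came from GENCODE M21 by symbol. Alternatives used limma 3.58.1, DESeq2 1.42.0 and sva 3.50.0. Other alternatives were RLE size factors, 2 other filters, a library class term (CT010467.1 above 1000 CPM), loess GC offsets (span 0.5), the groups compared alone and each library left out.

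The 27 genes, the other lists and the rule for named genes were chosen with earlier results of these data known. The rule names, in each comparison, each of the 27 past the threshold or else the 3 with the smallest p. Further genes among the 27 were named after their values were seen. Genes of other lists were named where called.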

Additional observations from a re-analysis of the deposited data

Results flagged for a closer look

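In 7 of 108 groups of 4 libraries (27 genes in 4 groups), 1 library lay far from the other 3, by a gap that is a larger share of the group's range than Dixon's critical value. Chance gives about 1 in 20 such groups. Cyp51 in Ch25h+/+ Tau- had its lowest value in replicate 3, 38.53 CPM against 61.48 to 63.71 in the others, and this library decides whether the tau difference of Cyp51 in Ch25h+/+ passes the test. Pmvk in Ch25h+/+ Tau+ was highest in replicate 1, at 41.39 CPM against 27.24 to 28.86. Mvk was picked out in 3 groups: 21.88 CPM in Ch25h+/+ Tau- replicate 3 (others 23.84 to 24.23), 20.96 CPM in Ch25h-/- Tau- replicate 1 (others 19.74 to 19.94) and 19.62 CPM in Ch25h-/- Tau+ replicate 2 (others 21.48 to 21.55). Insig2 reached 43.45 CPM in Ch25h-/- Tau- replicate 4, against 39.76 to 40.26. Fdps, with 14 to 40 counts per library, reached 2.176 CPM in Ch25h-/- Tau- replicate 2, against 1.205 to 1.326.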

How the results depend on the processing

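In the comparison that named it, no gene called or named by the rule changed sign under any fit run, but others of the 27 did. With GC offsets 8 did for loss of Ch25h in Tau- and 3 for loss in Tau+. With library class, 11 and 6 did, 2 for tau in Ch25h-/- and 2 for the interaction. For loss of Ch25h in Tau+, the count of called genes among the 27, 3 in the report, was 1 with no filter beyond 1 count, 5 with a mean of at least 50 counts, 1 with 1 surrogate variable, 6 with limma-voom and 7 with DESeq2. It was 0 with library class, with GC offsets and with only the groups compared. It was also 0 in both fits chosen after seeing the data, that of the 9 rRNA-poor libraries and that without the 4 choroid-rich libraries. Leaving out 1 library gave 0 to 8. For loss in Tau-, 0 in the report, it was 2 with only the groups compared, 3 with limma-voom and 3 with DESeq2, and 0 to 3 with 1 library left out (3 without Ch25h+/+ Tau+ replicate 1: Mvd, Ebp and Srebf2). For tau in Ch25h+/+ it was 0 to 1 (Cyp51, without Ch25h+/+ Tau- replicate 3). For tau in Ch25h-/- and the interaction it was 0 in every fit run. In the fits other than that of the report, these counts were not set against the share of all genes called.

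The median log2 fold change for loss in Tau+ was 0.149 with limma-voom and 0.035 to 0.151 with 1 library left out. That for loss in Tau- was -0.107 with library class, -0.054 with GC offsets and -0.071 to 0.032 with 1 library left out, and that for the interaction was 0.113 to 0.179. The median of the tau effect in Ch25h-/-, 0.053, dropped to 0.007 when Ch25h-/- Tau- replicate 3 was left out and to 0.020 when replicate 1 of that group was. That in Ch25h+/+, -0.094, was -0.054 without Ch25h+/+ Tau- replicate 1. Over all genes, the number called for loss in Tau+ ran from 3 to 1883 across these fits against 629, and for loss in Tau- from 0 to 1388 against 182. For tau in Ch25h+/+ it ran from 160 to 498 against 277, for tau in Ch25h-/- from 2 to 14 against 7, and for the interaction from 0 to 55 against 6. No paired analysis was possible because the labels give no replicate numbers, and those used here follow the order of the records. With 14 to 40 counts per library, differences of Fdps had a standard error of 0.28 to 0.40, against 0.06 to 0.22 for the other 26 genes.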
